A study of Danio rerio with 14 samples.

Results

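The transcriptome of injured lateral rectus (LR) muscle at 9 h post injury (hpi) was compared with that of uninjured LR muscle in adult zebrafish. The members were chosen as all features of the table comparing the uninjured group (CON) with the 9 hpi group (H9), of which 13590 of 31014 (43.8%) had a mean of at least 1 FPKM over both groups and are described here. FPKM, fragments scaled to transcript length and to the size of a library, lets levels of different genes be set side by side. Library size entered here through the authors' upper-quartile normalization. CON comprised 4 libraries at 0 hpi and H9 comprised 5 libraries at 9 hpi, of the 14 libraries of the series. All groups carried the same genotype label, actin:GFP, for a transgene in which an α-actin promoter drives a green fluorescent protein. The H9 fish had part of the right LR muscle removed surgically, and the CON fish give the uninjured level. Each library was made from LR tissue of several fish pooled after laser microdissection of decalcified frozen head sections, and the RNA was depleted of ribosomal RNA. The deposited table gives 1 FPKM per feature and group, in which CuffDiff had combined the libraries. No value below has a replicate check, and no SD or n can be attached to it. Log2 changes are log2((H9 + 0.1)/(CON + 0.1)), which understates the change of low features, and "higher" or "lower in H9" stands for a change of at least 2-fold on this scale, a rule of size and not a test. Values given for a gene in CON and H9 are group FPKM levels.

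The LR is an extraocular muscle and pulls the eye away from the midline. Adult zebrafish rebuild it after partial removal from the remaining muscle fibres, whose cells lose their contractile specialization and return to a proliferative, mesenchymal state. Fast skeletal fibres are known for very abundant mRNA of sarcomere proteins, calcium pumps and energy-buffering enzymes, and injured tissue in general attracts neutrophils and macrophages. The comparison of H9 with CON asks which transcripts had moved before the cells re-entered the cell cycle.

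In H9, 3164 features were higher, 23.3% of the 13590, and 3371 were lower, 24.8%. The median log2 change was 0.05. Changes of at least 8-fold were seen for 408 features in the direction of H9 and for 586 in the direction of CON. The most abundant features leaned to CON: of 206 features with a mean from 100 to 500 FPKM, 83 were lower in H9 and 23 higher, whereas of 3535 features from 5 to 20 FPKM 877 were lower and 959 higher. The split of calls depends on how the groups are scaled. The 23523 protein-coding features summed to 197591 FPKM in CON and 139159 FPKM in H9, and when H9 was rescaled to the same coding sum the median log2 change over all features became 0.56, with 5326 features higher and 2403 lower. Protein-coding genes made up 12267 of the 13590 features, of which 2815 were higher and 2929 lower. For the samples as muscle, 20 defining fibre markers were looked up. Of the 19 at or above 1 FPKM, 18 were lower in H9, with a median log2 change of -2.70, and their summed level was 19649 FPKM in CON and 2526 FPKM in H9. The fibre markers therefore carried 9.94% of the coding FPKM in CON and 1.82% in H9. In bulk tissue, fewer cells of a type and less RNA per cell cannot be told apart.

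**Figure D1:**
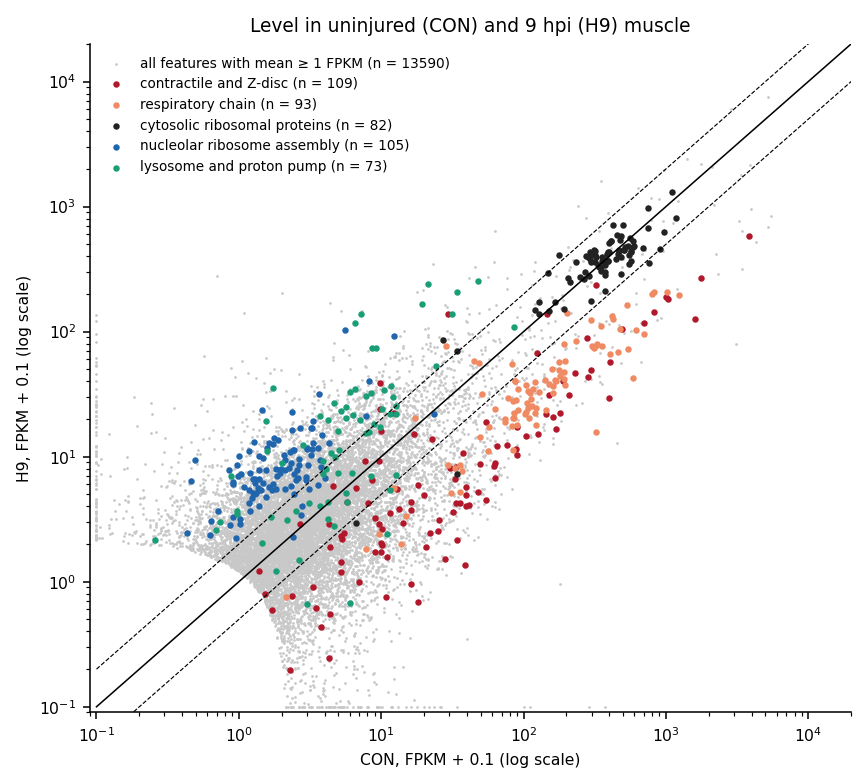
Group FPKM of each of the 13590 features in CON (x axis) and H9 (y axis), both as FPKM + 0.1 on log scales, with 5 gene groups coloured, the solid line at equal level and the dashed lines at 2-fold. Most contractile and respiratory chain genes lie below the lower dashed line, most nucleolar and lysosomal genes above the upper one, and most ribosomal protein genes between them; 10 features above 20000 FPKM lie outside the axes.

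The contractile apparatus was lower in H9 almost throughout. Over the lists of myosin heavy chains, myosin light chains with myosin-binding proteins, thin filament genes and Z-disc genes, 88 of 109 features were lower and 3 higher, with a median log2 change of -2.39 beside 0.05 for all features. These genes held 8.77% of the coding FPKM in CON and 2.40% in H9. Of 14 myosin heavy chain features 12 were lower in H9 (median -2.05). The fast chain myhz1.1 was the most abundant, at 487 FPKM in CON and 104 FPKM in H9, and the largest fall was that of myhz2, another fast chain, at 169 FPKM in CON and 16.5 FPKM in H9. The chains that stayed within 2-fold were the slow chain smyhc1, at 7.93 FPKM in CON and 4.16 in H9, and the non-muscle chain myh10, at 6.59 FPKM in CON and 5.54 in H9. All 17 light chain and myosin-binding protein features were lower (median -2.60). The regulatory light chain mylpfa had 1759 FPKM in CON and 271 FPKM in H9, and mybpc3, a myosin-binding protein C known best from heart, had 16.2 FPKM in CON and 0.863 in H9, 18.8-fold lower. The smallest difference was that of mybpc2b, a fast form, at 5.16 FPKM in CON and 2.23 in H9. Of 34 actin, troponin, tropomyosin and tropomodulin features 27 were lower and none higher (median -2.33). The sarcomeric actin actc1b, the most abundant of them, was at 3839 FPKM in CON and 577 FPKM in H9. Fast troponin C, tnnc2, which binds the calcium that starts contraction, had the largest fall, at 399 FPKM in CON and 29.2 in H9. On the other side of this list, the cytoskeletal tropomyosin tpm4a was at 12.2 FPKM in CON and 22.3 in H9 and smooth muscle actin acta2 at 9.47 FPKM in CON and 9.13 in H9, both within 2-fold.

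Of 44 Z-disc and scaffold features 32 were lower in H9 and 3 higher (median -2.33). The fall was largest for myoz2b, a myozenin that tethers calcineurin at the Z-disc, at 38.9 FPKM in CON and 1.26 FPKM in H9. The titin genes ttna and ttnb were at 189.6 FPKM in CON and 40.5 in H9 and at 180.2 FPKM in CON and 22.4 in H9. Filamin C, flnca, an actin crosslinker recruited to damaged Z-discs, was at 29.2 FPKM in CON and 138 FPKM in H9, 4.74-fold higher. The repair-associated xirp1 was at 9.66 FPKM in CON and 38.6 in H9, and klhl40a, which stabilizes thin filament proteins, at 9.65 FPKM in CON and 23.8 in H9. Desmin, desma, was within 2-fold at 146 FPKM in CON and 138 in H9, as were the titin cap tcap, the most abundant of the list, at 321 FPKM in CON and 237 in H9 and the myosin chaperone unc45b at 16.8 FPKM in CON and 15.1 in H9.

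The genes that couple nerve to contraction were lower as well. Of 33 excitation-contraction and calcium-handling features 29 were lower and 1 higher (median -2.14). The abundant calcium buffer pvalb4, a parvalbumin, was at 3403 FPKM in CON and 634 FPKM in H9. The fast SERCA pump atp2a1, which returns calcium to the sarcoplasmic reticulum, was at 3434 FPKM in CON and 319 FPKM in H9, 10.8-fold lower. The calsequestrins casq1a and casq1b, which store calcium there, were at 47.5 FPKM in CON and 4.34 in H9 and at 62.8 FPKM in CON and 5.88 in H9. The calcium channel subunit cacng6b had the largest fall, at 5.14 FPKM in CON and 0.187 in H9. The single higher member was atp2a2b, a SERCA2 pump of slow and non-muscle cells, at 5.73 FPKM in CON and 27.3 in H9. Summed with its paralogue atp2a2a, however, SERCA2 was lower, at 125 FPKM in CON and 59.7 in H9. At the neuromuscular junction 14 of 18 features were lower and none higher (median -2.17). Acetylcholinesterase, ache, which ends transmission, was at 67.6 FPKM in CON and 3.74 FPKM in H9, the kinase musk, which organizes the endplate, at 26.4 FPKM in CON and 1.51 in H9, and the receptor-anchoring rapsn at 13.4 FPKM in CON and 0.867 in H9. The receptor subunit chrna1 was at 39 FPKM in CON and 5.22 in H9. By contrast the voltage-gated sodium channel scn4ab was at 29.6 FPKM in CON and 51.4 in H9, and the fetal-type receptor subunit chrng (LOC100536659 in the table) at 1.27 FPKM in CON and 1.98 in H9, both within 2-fold. In the dystrophin complex, which links the cytoskeleton to the matrix, 16 of 22 features were lower and none higher (median -1.87). Dystrobrevin dtna had the largest fall, at 17.3 FPKM in CON and 0.761 in H9, and dystrophin itself, dmd, was at 24.5 FPKM in CON and 6.62 in H9. The most abundant member, murcb, a caveolar protein, was at 53.4 FPKM in CON and 12.0 in H9. No fall past 2-fold was seen for sgce, a sarcoglycan of many tissues, at 2.33 FPKM in CON and 3.74 in H9.

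Myogenic regulators were lower in part. Of 24 features 13 were lower, or 54.2% beside 24.8% of all features, and none higher (median -1.23). The largest fall was that of mstnb, the growth inhibitor myostatin, at 4.54 FPKM in CON and 0.0808 FPKM in H9, followed by myf6, the regulatory factor of mature fibres, at 19.9 FPKM in CON and 2.23 in H9. The differentiation factor myog was at 26.3 FPKM in CON and 8.99 in H9 and mef2aa at 34.8 FPKM in CON and 8.55 in H9. Of the determination and stem cell factors, myod1 was at 36.4 FPKM in CON and 30.3 in H9, pax7a at 2.2 FPKM in CON and 1.93 in H9 and pax7b at 2.57 FPKM in CON and 1.70 in H9, all 3 within 2-fold. The determination factor myf5, with a mean below 1 FPKM and so outside the counts, was at 1.42 FPKM in CON and 0.24 in H9. The most abundant member was id1, an inhibitor of myogenic factors, at 38.2 FPKM in CON and 31.8 in H9. The fusion factor mymk (tmem8c in the table) was at 2.80 FPKM in CON and 4.29 in H9, and the hepatocyte growth factor receptor met, a receptor of muscle stem cells, at 1.53 FPKM in CON and 2.92 in H9.

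Genes of mitochondrial energy supply were lower in H9, with 86 of 93 respiratory chain features lower and 1 higher (median -1.99). These are nuclear genes only, since none of 26 genes listed for the mitochondrial genome was matched. All 40 nuclear features of respiratory complex I were lower, over a narrow range of log2 changes from -2.91 to -1.11 (median -2.13). Its most abundant member, ndufa4l, was at 613 FPKM in CON and 102 FPKM in H9, its largest fall was that of ndufa7, at 84.4 FPKM in CON and 11.2 in H9, and its smallest that of ndufb4, at 86.5 FPKM in CON and 40.0 in H9. Of 53 features of complexes II to V 46 were lower and 1 higher (median -1.79). The muscle form of cytochrome oxidase subunit 7a, cox7a1, was at 321 FPKM in CON and 15.5 FPKM in H9, 20.6-fold lower. The ATP synthase subunit atp5l was the most abundant, at 1235 FPKM in CON and 195 in H9. The exception was cox5ba (zgc:86599 in the table), at 28.3 FPKM in CON and 77.0 in H9. Together these nuclear respiratory chain genes held 9.43% of the coding FPKM in CON and 3.31% in H9. In the citrate cycle list 20 of 25 features were lower and 2 higher (median -1.81). This list also held pyruvate dehydrogenase subunits and kinases, cytosolic malate dehydrogenases and idh3g, which RefSeq names mcur1. The most abundant was idh2, a mitochondrial isocitrate dehydrogenase, at 1022 FPKM in CON and 191 in H9, and the largest fall that of the cytosolic malate dehydrogenase mdh1b, at 62.6 FPKM in CON and 7.01 in H9. The 2 higher were ogdhb, an oxoglutarate dehydrogenase, at 2.52 FPKM in CON and 6.96 in H9 and suclg2, the GTP-forming succinate-CoA ligase subunit, at 2.62 FPKM in CON and 5.79 in H9. Fatty acid oxidation had 31 of 34 features lower and none higher (median -2.30). Uncoupling protein ucp3 had the largest fall, at 19.7 FPKM in CON and 0.611 in H9. The muscle carnitine palmitoyltransferase cpt1b, which admits fatty acids to the mitochondrion, was at 20.3 FPKM in CON and 1.23 in H9. The non-muscle form cpt1a was at 1.52 FPKM in CON and 1.51 in H9. Its paralogue cpt1ab (si:ch211-236l14.3 in the table) was lower, at 26.5 FPKM in CON and 4.296 in H9. The most abundant member, the dehydrogenase acadm, was at 172 FPKM in CON and 25.7 in H9, and ppargc1a, the coactivator that drives mitochondrial gene expression, at 14.4 FPKM in CON and 1.76 in H9. In the machinery that makes and imports mitochondrial proteins 21 of 92 features were lower and 4 higher, or 22.8% and 4.35% beside 24.8% and 23.3% of all features. Of its import receptors tomm20b, the most abundant, was at 48.5 FPKM in CON and 21.9 in H9 and tomm20a at 4.67 FPKM in CON and 24.7 in H9. The largest fall was that of timm21 (si:dkey-118j18.1 in the table), at 5.41 FPKM in CON and 0.746 in H9.

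Glycolysis, glycogen use and phosphocreatine did not move as a block, with 28 of 48 features lower and 11 higher. The lower features included forms typical of muscle and the higher ones forms of other tissues. Set side by side were 17 proteins with a form typical of striated muscle and a form of other tissues, chosen after the values were seen and for this pattern, so their counts are a description only. In CON the muscle forms had the larger summed FPKM in all 17, and in H9 in 10. The muscle sum was at least 2-fold lower in H9 in 16 of the 17, and the other sum was at least 2-fold higher in 11 and at least 2-fold lower in 2. The muscle share was smaller in H9 for all 17, although for creatine kinase and the filamins the difference was only from 99.6% to 95.5% and from 73.7% to 68.6%. Such a share is taken within a group and does not depend on how the groups are scaled to each other. For phosphofructokinase, the pacing enzyme of glycolysis, the muscle genes pfkma and pfkmb were at 159.7 FPKM in CON and 12.5 in H9 and at 53 FPKM in CON and 4.07 in H9, while the platelet-type pfkpa was at 4.13 FPKM in CON and 25.2 in H9. Their muscle share was 97.2% in CON and 35.7% in H9. For pyruvate kinase, pkmb was at 232 FPKM in CON and 25.8 FPKM in H9 and pkma at 41.4 FPKM in CON and 138 in H9, a share of 84.9% and 15.8% for pkmb. For phosphoglycerate mutase, pgam2 was at 342 FPKM in CON and 39.5 in H9 and pgam1a at 12.2 FPKM in CON and 62.0 in H9. The dehydrogenase gapdh, the most abundant glycolytic gene, was at 5194 FPKM in CON and 692 FPKM in H9, and gapdhs, a separate gene for the same enzyme, at 45.7 FPKM in CON and 327 in H9, 7.16-fold higher. Muscle enolase eno3 was at 1201 FPKM in CON and 218 in H9 and the general enolase eno1a at 56.6 FPKM in CON and 152 in H9. Creatine kinase, which buffers ATP, was mostly of the muscle kind in both groups. Its muscle genes ckmb and ckma were at 4316 FPKM in CON and 516 in H9 and at 2321 FPKM in CON and 291 in H9, and its brain-type genes ckbb and ckba at 21.2 FPKM in CON and 25.8 in H9 and at 7.36 FPKM in CON and 12.1 in H9. Hexokinase hk2 was higher, at 12.9 FPKM in CON and 48.7 in H9.

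**Figure D2:**
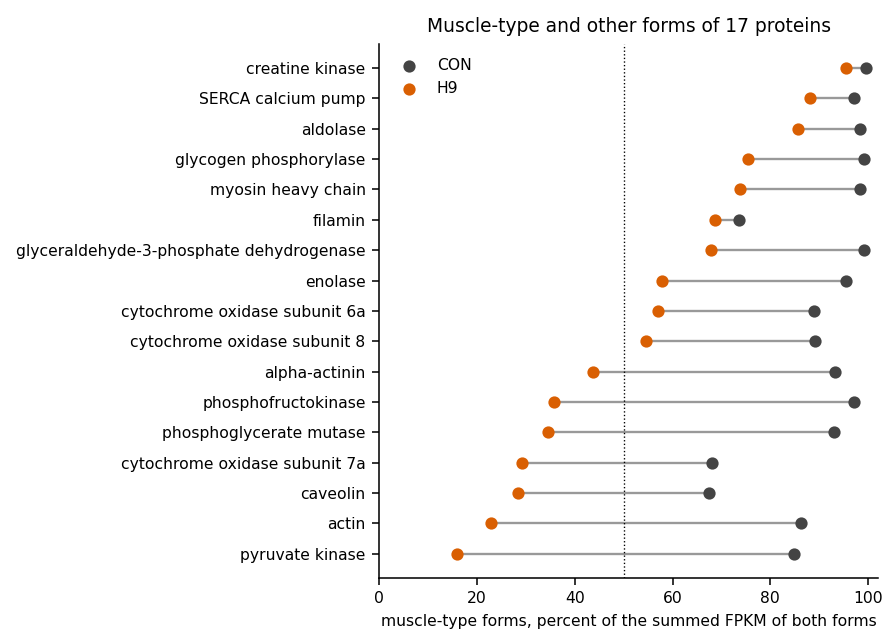
Share of the muscle-type forms in the summed FPKM of both forms of 17 proteins, in percent, with CON as dark and H9 as orange points and a dotted line at equal share. Every orange point lies left of its dark partner; pyruvate kinase and actin show the lowest muscle shares in H9, 15.8% and 22.8%.

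Of the pairs outside metabolism, sarcomeric actins summed to 5459 FPKM in CON and 710.5 in H9, while the cytoplasmic actins actb1 and actb2 were at 239 FPKM in CON and 1007 in H9 and at 634 FPKM in CON and 1399 in H9. The actin pool in the RNA was thus 86.2% sarcomeric in CON and 22.8% in H9, and actb2 was the most abundant protein-coding feature of H9, where in CON it ranked 36. For α-actinin the share was 93.3% and 43.8%, with actn3b at 144 FPKM in CON and 21.8 in H9 and actn1, an actinin of stress fibres, at 2.67 FPKM in CON and 11 in H9. The non-muscle myosin myh9a, which drives cell motility, was at 2.28 FPKM in CON and 28.1 FPKM in H9, 12.3-fold higher. Over a wider list of motility and mesenchymal genes, 26 of 54 features were higher and 4 lower (median 0.86). Thymosin tmsb4x, which sequesters actin, was at 276 FPKM in CON and 807 in H9. The actin-binding flna was at 13.2 FPKM in CON and 67.4 in H9 and the membrane linker msna at 14 FPKM in CON and 74.4 in H9. Of the Arp2/3 complex, which nucleates branched actin, arpc1b was at 12.6 FPKM in CON and 67.8 in H9. Microtubule genes were among the higher ones too, tuba8l at 7.97 FPKM in CON and 70 in H9 and tuba1b at 4.80 FPKM in CON and 33.8 in H9. The most widely used mesenchymal markers in the list did not pass 2-fold: vim was at 16.4 FPKM in CON and 10.8 in H9 and cdh2 at 5.81 FPKM in CON and 10.1 in H9. The 4 lower were stmn1a, zeb2b, vcla and tuba1l2, with the largest fall that of stmn1a, a microtubule-destabilizing protein of dividing cells, at 2.25 FPKM in CON and 0.204 in H9. Several of the higher genes, such as rac2, at 4.11 FPKM in CON and 29.7 in H9, are known from blood leukocytes, whose markers were also higher in H9, as given below. Their part in these levels was not tested.

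Ribosome production was the most uniform group on the other side. Of 105 nucleolar features, whose proteins transcribe and process ribosomal RNA and assemble its subunits, 98 were higher in H9 and none lower (median 1.97), where 23.3% of all features were higher. The list summed to 244 FPKM in CON and 1115 in H9. Nucleophosmin npm1a, a nucleolar chaperone and the most abundant member by mean, was at 5.47 FPKM in CON and 102 FPKM in H9, 18.6-fold higher. Nucleolin, ncl, was at 12.2 FPKM in CON and 91.6 in H9. The box C/D proteins nop58 and fbl, which guide methylation of ribosomal RNA, were at 1.36 FPKM in CON and 23.6 in H9 and at 3.53 FPKM in CON and 31.7 in H9. For pseudouridylation, gar1 had the largest rise, at 0.396 FPKM in CON and 9.30 in H9, and dkc1 was at 2.28 FPKM in CON and 22.7 in H9. RNA polymerase I was included, with its large subunit polr1a at 1.88 FPKM in CON and 7.86 in H9 and its initiation factor rrn3 at 2.01 FPKM in CON and 5.46 in H9. The 7 members within 2-fold were pno1, npm1b, nol9, nol12, wdr12, imp3 and nob1, and the lowest log2 change among them was that of pno1, an assembly factor of the small subunit, at 23.5 FPKM in CON and 21.9 in H9.

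The proteins of the finished cytosolic ribosome did not follow. Of 82 ribosomal protein features 3 were higher and 3 lower, the median log2 change was 0.00 and the summed level was 33205 FPKM in CON and 32656 in H9. When the groups were scaled to equal coding sums this median became 0.51, and that of the nucleolar list 2.48. The higher ones were rps27l (zgc:136826 in the table), at 27 FPKM in CON and 85.0 in H9, rplp2l, at 176 FPKM in CON and 408 in H9, and rpl22l1, at 33.8 FPKM in CON and 69.7 in H9, all paralogues of standard subunits. The most abundant was rpl27a, at 1099.9 FPKM in CON and 1298 in H9. The lower ones were rpl37, rpl34 and rps8b, of which rps8b was at 34.2 FPKM in CON and 7.14 in H9, while its paralogue rps8a was at 297 FPKM in CON and 416 in H9. Reads shared by such near-identical copies were split by the authors' correction, so that single paralogues are uncertain.

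Other steps from gene to protein were higher too. Of 22 aminoacyl-tRNA synthetase features, which charge tRNA, 16 were higher and none lower (median 1.54), with rars at 2.97 FPKM in CON and 14.8 in H9, sars at 6.75 FPKM in CON and 28.1 in H9 and dars, which had the lowest log2 change, at 14.6 FPKM in CON and 14.3 in H9. The most abundant, kars, was at 36.2 FPKM in CON and 40.6 in H9. Translation factors had 20 of 52 higher and 3 lower (median 0.71), or 38.5% and 5.77% beside 23.3% and 24.8% of all features. The helicase eif4a1a, which unwinds mRNA leaders, was at 14.3 FPKM in CON and 102 in H9, and the elongation factor eef1a1l1, the most abundant, at 389 FPKM in CON and 882 in H9, whereas the 3 lower were eif3f, eef1da and eef2l2, with eef2l2 at 165 FPKM in CON and 50.8 in H9. In the spliceosome 30 of 54 were higher and none lower (median 1.08). They included core ring proteins, with snrpd3 at 0.728 FPKM in CON and 9.25 in H9, snrpd1 at 4.23 FPKM in CON and 24.1 in H9 and the most abundant, snrpb, at 26.7 FPKM in CON and 56.3 in H9. Of the branch-point complex, sf3b1 was at 31.8 FPKM in CON and 16.6 in H9 and sf3b5 at 13.8 FPKM in CON and 7.16 in H9, both within 2-fold. The splicing regulator srsf5a, the most abundant member in CON, was at 45.2 FPKM in CON and 32.1 in H9. Nuclear pore and transport genes had 27 of 45 higher and none lower (median 1.12), among them rcc2 at 1.68 FPKM in CON and 8.30 in H9 and ranbp1, which helps to release cargo with the GTPase Ran, at 10.1 FPKM in CON and 44.4 in H9. Ran itself was the most abundant, at 67.5 FPKM in CON and 87.7 in H9, and the exportin xpo1b had the lowest log2 change, at 5.06 FPKM in CON and 2.74 in H9. Of 34 features for serine, folate, nucleotide and polyamine synthesis and amino acid transport 17 were higher and 7 lower (median 0.94). The mitochondrial folate enzyme mthfd1l was at 0.0337 FPKM in CON and 4.37 in H9, ornithine decarboxylase odc1, which starts polyamine synthesis, at 7.20 FPKM in CON and 40.8 in H9. The pyrimidine enzyme cad was at 3.14 FPKM in CON and 19.1 in H9 and the leucine transporter slc7a5 at 2.24 FPKM in CON and 15.7 in H9. The most abundant, the glutamine transporter slc38a2, was at 31.6 FPKM in CON and 16.5 in H9, and ctps1b, a CTP synthase, was at 9.45 FPKM in CON and 0.836 in H9.

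**Figure D3:**
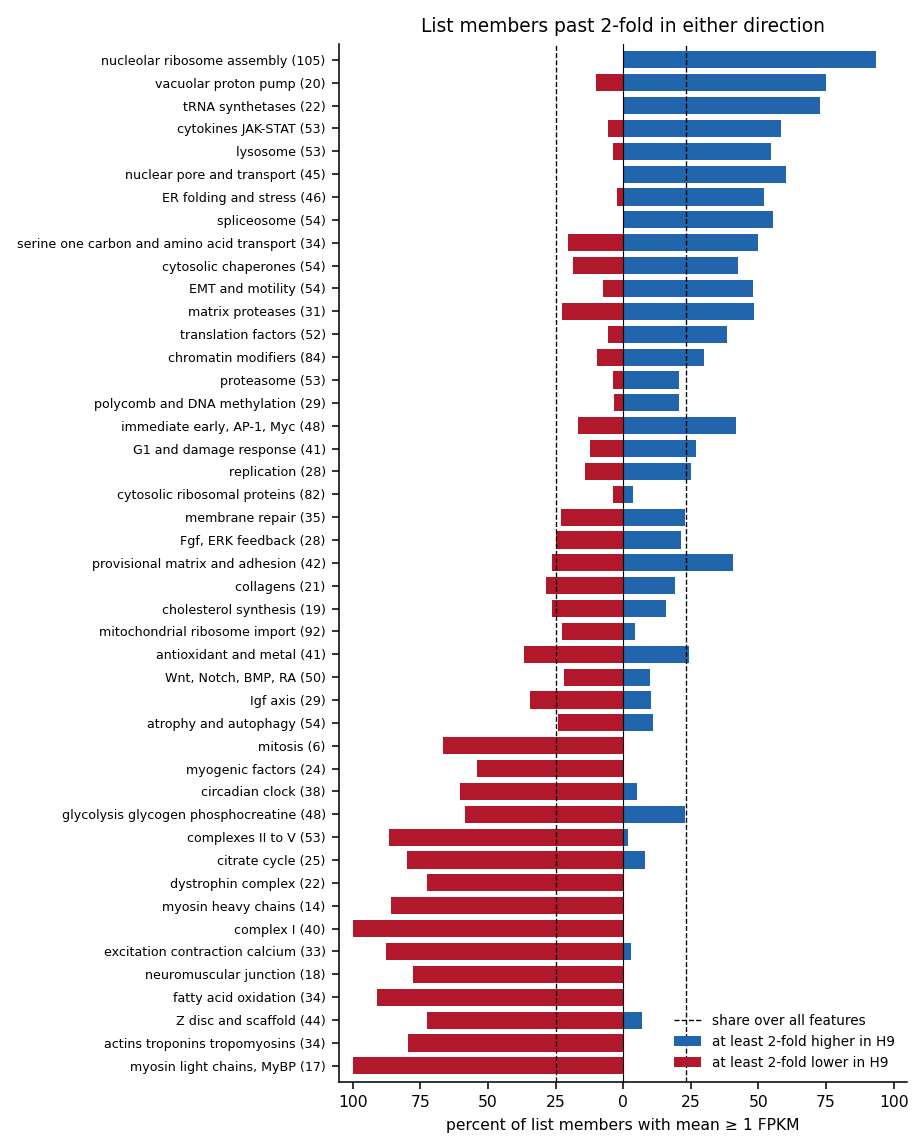
Percent of the members of 45 gene lists (number with a mean of at least 1 FPKM in parentheses) that were at least 2-fold higher (blue, right) or lower (red, left) in H9, ordered by median log2 change, with the shares over all features, 23.3% and 24.8%, as dashed lines. Muscle and mitochondrial lists lie at the bottom with few or no blue bars, and nucleolar, tRNA, pore and splicing lists at the top with no red ones.

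Protein folding genes were higher more often than lower, while other stress lists held genes of both directions. Of 54 cytosolic and mitochondrial chaperone features 23 were higher and 10 lower (median 0.88). The inducible Hsp70 gene hspa1b (si:ch211-199o1.2 in the table) was at 1.55 FPKM in CON and 46.5 FPKM in H9, 30.0-fold higher, and hsp70l at 1.39 FPKM in CON and 14.5 in H9. The small heat shock gene hspb9 was at 7.19 FPKM in CON and 145 in H9. Small heat shock genes of muscle went the other way, hspb7 at 124 FPKM in CON and 55.7 in H9, hspb6 at 115 FPKM in CON and 45.3 in H9 and hspb2 at 5.19 FPKM in CON and 0.755 in H9. The most abundant chaperone by mean was hspa8, the constitutive Hsp70, at 206 FPKM in CON and 475 in H9, and the largest fall was that of ahsa1, an Hsp90 activator, at 8.30 FPKM in CON and 1.13 in H9, while its paralogue ahsa1l was at 3.73 FPKM in CON and 16.4 in H9. In the endoplasmic reticulum 24 of 46 features were higher and 1 lower (median 1.09). The oxidase ero1a (ero1l in the table), which forms disulphide bonds, was at 1.41 FPKM in CON and 22.8 in H9, the chaperone hyou1 at 3.69 FPKM in CON and 23.5 in H9 and hspa5, the chief chaperone of this compartment, at 29.1 FPKM in CON and 157 in H9. The stress-induced death factor ddit3 was within 2-fold, at 21.6 FPKM in CON and 17.6 in H9, and the lower member was the translocon subunit sec61g, also the most abundant, at 336 FPKM in CON and 117 in H9. Antioxidant and metal genes moved both ways, with 10 of 41 higher and 15 lower, or 24.4% and 36.6% beside 23.3% and 24.8% of all features. The iron store fth1a was the most abundant, at 224 FPKM in CON and 372 in H9. Heme oxygenase hmox1a was at 1.57 FPKM in CON and 33.4 FPKM in H9, the peroxiredoxin prdx1 at 0.502 FPKM in CON and 7.04 in H9 and the glutathione synthesis subunit gclm at 0.963 FPKM in CON and 6.74 in H9. The mitochondrial sod2 was at 52.0 FPKM in CON and 12.9 in H9, prdx3 at 39.0 FPKM in CON and 11.8 in H9 and gpx7 at 2.73 FPKM in CON and 0.138 in H9. Among membrane repair genes 8 of 35 were higher and 8 lower, 22.9% in each direction, near the 23.3% and 24.8% of all features. Its most abundant member, icn, a small calcium-binding protein, was at 389 FPKM in CON and 385 in H9. The annexins, which seal torn membrane, diverged, with anxa2a at 56.2 FPKM in CON and 273 in H9 and anxa6 at 34.2 FPKM in CON and 2.56 in H9, and the galectin lgals9l1 had the largest rise, at 1.1 FPKM in CON and 10.2 in H9.

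Signals that follow injury were among the largest rises. Of 48 immediate-early, AP-1, Myc and related features 20 were higher and 8 lower, or 41.7% and 16.7% beside 23.3% and 24.8% of all features. The median of this list was only 0.19. The AP-1 subunit fosl1a was at 1.06 FPKM in CON and 46.6 FPKM in H9, 43.8-fold higher, fosl2 at 3.38 FPKM in CON and 20.9 in H9 and junba at 5.65 FPKM in CON and 28.8 in H9. The stress factor atf3 was at 1.09 FPKM in CON and 10.1 in H9. Of the Myc genes, mych was at 1.88 FPKM in CON and 49.5 in H9, mycb at 6.95 FPKM in CON and 34.6 in H9 and myca at 1.86 FPKM in CON and 7.87 in H9, while mycn was at 1.95 FPKM in CON and 0.875 in H9. Of the earliest genes of such a response, egr1 was at 16.2 FPKM in CON and 17.7 in H9, jun at 23.3 FPKM in CON and 26.7 in H9 and fos at 9.51 FPKM in CON and 16.9 in H9, all within 2-fold, while fosb was at 1.90 FPKM in CON and 6.95 in H9. The factor cebpb, the most abundant member, was at 30.2 FPKM in CON and 97.9 in H9, and klf4 had the largest fall, at 7.17 FPKM in CON and 0.522 in H9. Among cytokine, receptor and JAK-STAT features 31 of 53 were higher and 3 lower (median 1.45). Rises were found at several steps of the interleukin-6 family pathway, which signals through the shared receptor il6st. Of its ligands, clcf1 was at 0.00314 FPKM in CON and 8.45 FPKM in H9, its secreted partner crlf1a at 0.468 FPKM in CON and 63.4 in H9, 136-fold higher, and il11a (LOC570404 in the table) at 0.518 FPKM in CON and 8.33 in H9. Of its receptors, lifrb was at 2.05 FPKM in CON and 11.3 in H9 and il6st at 13.1 FPKM in CON and 30.7 in H9, whereas il11ra was at 23.6 FPKM in CON and 5.06 in H9, the largest fall of the list, in which stat1b and socs2 were the others lower. Downstream, the kinase jak1 was at 10.7 FPKM in CON and 33.2 in H9, stat3 at 11.8 FPKM in CON and 26.0 in H9 and socs3b, the feedback inhibitor, at 16.3 FPKM in CON and 58.4 in H9. The chemokines cxcl18b and ccl34a.4 were the most abundant, at 19.4 FPKM in CON and 216 in H9 and at 17.9 FPKM in CON and 208 in H9. Interleukin 1β, il1b, was at 0.173 FPKM in CON and 3.1 in H9 and cxcl8a, a chemokine of neutrophils, at 0.735 FPKM in CON and 8.09 in H9. Receptors typical of leukocytes were higher as well, with csf3r at 3.09 FPKM in CON and 36.7 in H9, and their part in the cytokine list was not tested.

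**Figure D4:**
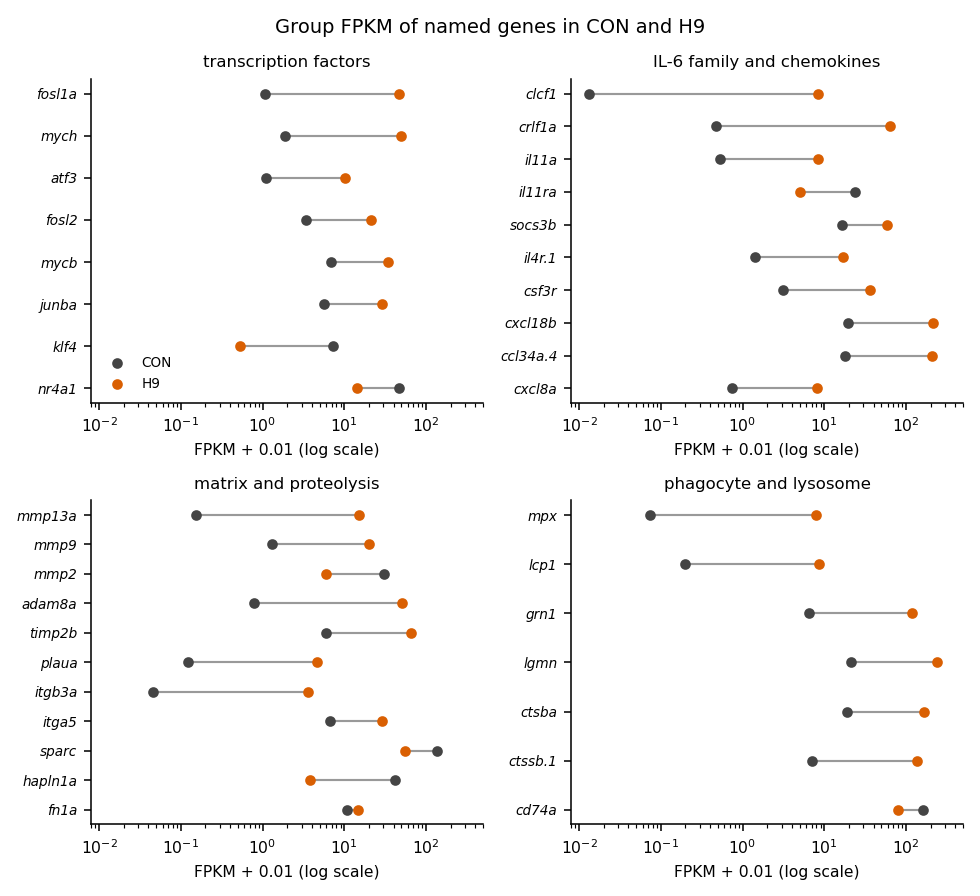
Group FPKM of 36 named genes, as FPKM + 0.01 on log scales, with CON as dark and H9 as orange points joined by a line, in 4 panels by role. Orange lies right of dark except for klf4, nr4a1, il11ra, mmp2, sparc, hapln1a and cd74a.

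In the Fgf, ERK and feedback list of growth factor genes 6 of 28 features were higher and 7 lower, or 21.4% and 25%, near the 23.3% and 24.8% of all features. The EGF receptor ligand hbegfb was at 1.23 FPKM in CON and 14.5 in H9, the receptor fgfr1a at 2.60 FPKM in CON and 11.7 in H9 and the feedback inhibitor spry1 at 0.627 FPKM in CON and 3.54 in H9, while fgfr3 had the largest fall, at 5.61 FPKM in CON and 0.846 in H9. The most abundant member, the inhibitor spry4, was at 10.7 FPKM in CON and 21.0 in H9. In the Wnt, Notch, BMP and retinoic acid list 5 of 50 were higher and 11 lower, or 10% and 22.0%. The retinoic acid synthesis enzyme aldh1a2 was at 5.86 FPKM in CON and 18.0 in H9, the Wnt pathway protein dkk3b in the table, which RefSeq names dkk3a, at 0.249 FPKM in CON and 1.92 in H9, and the others higher were fzd6, rdh10b and bmpr2a. The Wnt receptor fzd4 had the largest fall, at 9.09 FPKM in CON and 1.14 in H9, and the growth factor tgfb2 was at 18.6 FPKM in CON and 6.72 in H9. The most abundant, β-catenin ctnnb1, was at 13.5 FPKM in CON and 23.1 in H9. The insulin-like growth factor list had 3 of 29 higher and 10 lower, or 10.3% and 34.5%. The binding proteins igfbp3 and igfbp2a were at 19.9 FPKM in CON and 1.97 in H9 and at 12.3 FPKM in CON and 0.999 in H9, and the kinase gene akt2l had the largest fall, at 21.3 FPKM in CON and 1.26 in H9. The adaptor grb10a, the most abundant, was at 42.8 FPKM in CON and 11.9 in H9. The 3 higher were igf2r, akt3a and the ribosomal S6 kinase gene rps6kb1b, the last at 2.67 FPKM in CON and 9.90 in H9.

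In the matrix, several proteases and integrins were higher. Of 31 matrix protease and inhibitor features 15 were higher and 7 lower (median 0.81). The collagenase mmp13a was at 0.141 FPKM in CON and 15.3 FPKM in H9, the gelatinase mmp9 at 1.28 FPKM in CON and 20 in H9 and the membrane protease adam8a at 0.783 FPKM in CON and 50.9 in H9, 65.0-fold higher. The other gelatinase, mmp2, was at 30.4 FPKM in CON and 5.92 in H9, and protease inhibitors diverged, timp2b at 5.88 FPKM in CON and 65.5 in H9 and timp4a at 5.95 FPKM in CON and 0.725 in H9. Of 42 adhesion and provisional matrix features 17 were higher and 11 lower, or 40.5% and 26.2% beside 23.3% and 24.8% of all features. The median of this list was -0.18, so it did not rise as a whole. The urokinase gene plaua, which activates plasmin, was at 0.113 FPKM in CON and 4.58 in H9. Integrin chains that bind fibronectin and vitronectin were higher, itgb3a at 0.0355 FPKM in CON and 3.61 in H9 and itga5 at 6.61 FPKM in CON and 28.7 in H9, while the laminin-binding itga7, the main α-chain of muscle fibres, was at 12.4 FPKM in CON and 5.75 in H9. Fibronectin fn1a, which the study knocked down, was within 2-fold at 10.7 FPKM in CON and 14.8 in H9. The matrix glycoprotein sparc, the most abundant member, was at 135 FPKM in CON and 54.8 in H9, and the link protein hapln1a at 41.7 FPKM in CON and 3.76 in H9. Of 21 collagen features 4 were higher and 6 lower, or 19% and 28.6%, near the 23.3% and 24.8% of all features. The most abundant, col1a2, was at 39.8 FPKM in CON and 34.4 in H9 and col1a1a at 44.2 FPKM in CON and 29.4 in H9. The higher ones were col10a1a, col15a1a, col12a1a and col5a3a, the last with the largest rise, at 2.29 FPKM in CON and 8.51 in H9, and the largest fall was that of col15a1b, at 2.73 FPKM in CON and 0.779 in H9.

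Genes of the lysosome were higher. Of 53 lysosomal features 29 were higher and 2 lower (median 1.24), and of 20 features of the proton pump that acidifies it 15 were higher and 2 lower (median 1.76). The cathepsins ctssb.1, ctsba and ctsla, which digest proteins, were at 7.09 FPKM in CON and 138 in H9, at 19.2 FPKM in CON and 167 in H9 and at 33.8 FPKM in CON and 209 in H9. Legumain, lgmn, which activates cathepsins, was at 21.3 FPKM in CON and 238 FPKM in H9, and the membrane protein cd63, the most abundant, at 47.5 FPKM in CON and 252 in H9. The pump subunit tcirg1b (zgc:55891 in the table), known from osteoclasts and leukocytes, had the largest rise, at 1.65 FPKM in CON and 35.3 in H9, and atp6v0ca was at 9.14 FPKM in CON and 73.7 in H9. The other way went the channel mcoln1b, at 2.92 FPKM in CON and 0.558 in H9, with ppt1, and the pump subunit atp6v1b2, at 5.98 FPKM in CON and 0.571 in H9, with atp6v0cb. Of 54 autophagy and atrophy features 6 were higher and 13 lower (median -0.53), or 11% and 24.1% beside 23.3% and 24.8% of all features. The cargo receptor sqstm1 was both the most abundant and the largest rise, at 13.5 FPKM in CON and 91.6 FPKM in H9. The autophagosome protein map1lc3a was at 15.7 FPKM in CON and 2.05 in H9, the muscle ubiquitin ligase trim63 at 26.0 FPKM in CON and 6.70 in H9 and the mitophagy receptor bnip3 at 13.5 FPKM in CON and 3.23 in H9. The proteasome had 11 of 53 higher and 2 lower (median 0.40), or 20.8% and 3.77% beside 23.3% and 24.8% of all features. The core subunit psma1 was the most abundant, at 40.7 FPKM in CON and 36.0 in H9. The lid subunit psmd11a was at 1.48 FPKM in CON and 7.53 in H9 and the immune subunit psmb9a at 5.69 FPKM in CON and 1.09 in H9, lower like its partner psmb8.

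Markers of other cell types moved in different directions, and some stayed near CON. Of all features 23.3% were higher and 24.8% lower, and several of these lists held few features. Of 29 phagocyte markers 24 were higher in H9 and 1, apoeb, lower (median 1.98), and the 32 matched markers summed to 491 FPKM in CON and 875 in H9. The neutrophil enzyme mpx was at 0.0635 FPKM in CON and 7.96 FPKM in H9 and the leukocyte plastin lcp1 at 0.187 FPKM in CON and 8.66 in H9. The macrophage marker mpeg1.1 was at 4.37 FPKM in CON and 8.91 in H9, and tyrobp was the only matched marker listed at 0 in CON. The antigen presentation genes cd74a, the most abundant in CON, and cd74b were at 159 FPKM in CON and 79.7 in H9 and at 104 FPKM in CON and 64.9 in H9. Markers of the vessel wall stayed near CON, with 1 of 18 endothelial features higher, fli1a, and 1 lower, si:dkey-208k22.3. The most abundant, the VEGF receptor kdrl, was at 9.31 FPKM in CON and 16.8 in H9. Of 13 red cell markers epb41b and nt5c2l1 were higher and fech and gata1a lower, with the most abundant, the globin ba1, at 259.5 FPKM in CON and 365 in H9. Schwann cell markers were lower in 8 of 12 and higher in none (median -1.35), mbpb at 101.3 FPKM in CON and 41.3 in H9 and plp1b at 32.2 FPKM in CON and 3.94 in H9. Fibroblast markers were lower in 7 of 14 and higher in 1, dcn at 21.3 FPKM in CON and 5.27 in H9 and prrx1a, a factor of connective tissue progenitors, at 1.82 FPKM in CON and 7.47 in H9. Epidermal markers were lower in 5 of 12 and higher in 1, krt93, with the most abundant, krt94, at 74.2 FPKM in CON and 19.5 in H9. Of 16 matched neuronal markers only syt1a reached 1 FPKM. The lymphocyte list had 6 such features, 1 of them higher and 2 lower. The higher one, cd3eap, at 0.867 FPKM in CON and 3.70 in H9, is a subunit gene of RNA polymerase I and marks no lymphocyte. The T cell kinase lck was at 3.17 FPKM in CON and 0.178 in H9 and the interleukin-2 receptor chain il2rb at 3.83 FPKM in CON and 1.01 in H9.

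Some markers of tissues outside the muscle were seen mainly in CON. All 9 pancreatic features at or above 1 FPKM were lower in H9, the chymotrypsinogen ctrb1 at 9.74 FPKM in CON and listed at 0 in H9, and the 18 matched markers summed to 49.9 FPKM in CON and 3.97 in H9. Of 8 retinal features 4 were lower and 1 higher, with rhodopsin, rho, at 26.9 FPKM in CON and 5.75 in H9 and gnb1b, the most abundant and higher one, at 10.5 FPKM in CON and 22.5 in H9, and the 24 matched ones summed to 67.3 and 39 FPKM. Of 5 cartilage and bone features col10a1a, bglap and spp1 were higher, with spp1 at 2.28 FPKM in CON and 11.7 in H9. These sums are small beside the fibre markers, and their part in other results was not tested.

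**Figure D5:**
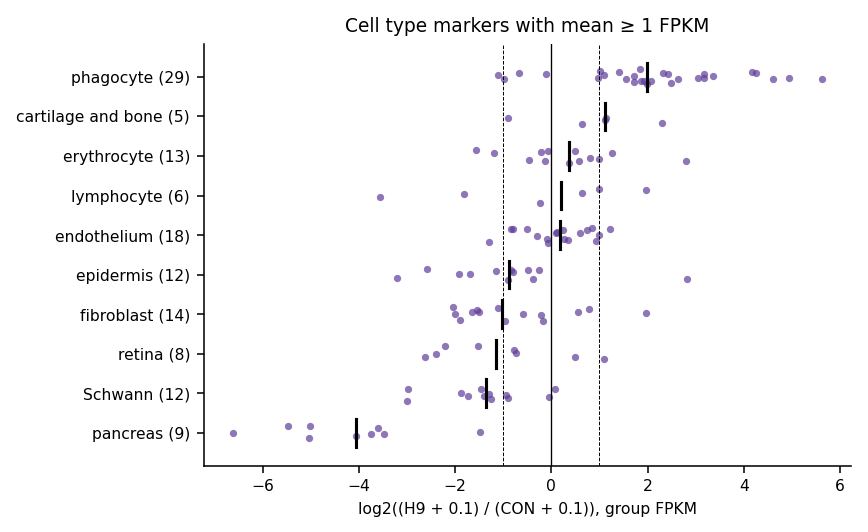
Log2 change from CON to H9 of cell type markers with a mean of at least 1 FPKM, a point per gene and a bar at the median of each list, with dashed lines at 2-fold; lists with under 5 such features are left out. Phagocyte markers lie mostly right of the upper dashed line with a median of 1.98, endothelial and red cell markers around 0, and pancreatic markers far left with a median of -4.06.

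The study knocked down the Polycomb genes ezh2, the methyltransferase that lays down the repressive mark on histone H3 lysine 27, and suz12a, its core partner. In H9 ezh2 was at 1.12 FPKM in CON and 2.96 FPKM in H9, 2.65-fold higher, and suz12a at 1.77 FPKM in CON and 3.23 in H9, within 2-fold. The partner aebp2 was at 1.09 FPKM in CON and 4.05 in H9, the histone-binding rbb4l at 3.46 FPKM in CON and 11.4 in H9 and the paralogue suz12b at 4.78 FPKM in CON and 2.84 in H9. Over all 29 Polycomb and DNA methylation features 6 were higher and 1 lower (median 0.31), a higher share of 20.7% beside 23.3% of all features. The largest rise was that of phf13 in the table, which RefSeq names phf19, at 0.545 FPKM in CON and 2.43 in H9, and the largest fall that of pcgf5a, a ring protein, at 6.82 FPKM in CON and 2.57 in H9. The most abundant member was cbx7a, at 7.61 FPKM in CON and 21.5 in H9. Among 84 other chromatin modifiers 25 were higher and 8 lower (median 0.43), or 29.8% and 9.52% beside 23.3% and 24.8% of all features. They included the arginine methyltransferase prmt1, the most abundant, at 19.4 FPKM in CON and 74.5 in H9, and the remodeller smarca4a at 1.94 FPKM in CON and 9.48 in H9. The largest rise was that of the methyl-DNA reader mbd2, at 2.21 FPKM in CON and 10.8 in H9, and the H3 lysine 27 demethylase kdm6ba was at 1.66 FPKM in CON and 7.19 in H9. The class II deacetylase hdac5, which restrains muscle genes in mammals, was at 6.48 FPKM in CON and 2.34 in H9, and hdac12 (si:ch211-250i4.2 in the table) had the largest fall, at 2.74 FPKM in CON and 0.358 in H9.

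Most mitotic genes were below the FPKM filter in both groups. Of 66 matched mitotic features 6 reached a mean of 1 FPKM, of which racgap1, cenpa, ccna2 and birc5b were lower in H9 and none higher. Of these, at least ccna2 and birc5b passed the filter only through their level in CON. With so few members left, the count gives no direction for mitosis. The cyclin ccna2 was at 1.87 FPKM in CON and 0.652 in H9, the checkpoint gene bub3 at 1.98 FPKM in CON and 3.82 in H9, and birc5b, a survivin, was at 7.16 FPKM in CON and listed at 0 in H9. In DNA replication 28 of 63 reached 1 FPKM, with 7 higher and 4 lower, or 25% and 14.3%. Of all features 23.3% were higher and 24.8% lower. The lower ones were orc4, zgc:110337, rnaseh2a, at 4.03 FPKM in CON and 1.3 in H9, and the clamp pcna, the most abundant, at 23.4 FPKM in CON and 8.64 in H9. The helicase subunit mcm5 was at 1.24 FPKM in CON and 3.07 in H9 and the origin protein orc3, with the largest rise, at 0.409 FPKM in CON and 3.8 in H9. Among 41 G1 and damage response features 11 were higher and 5 lower, or 26.8% and 12.2%. The higher shares of both lists were thus near that of all features. The survival gene mcl1a was at 40.7 FPKM in CON and 97.6 in H9. The stress gene gadd45bb was at 4.95 FPKM in CON and 23.4 in H9, and the caspase casp9 had the largest rise, at 0.377 FPKM in CON and 2.83 in H9. The most abundant, ccng1, was at 102 FPKM in CON and 66.9 in H9. The stress gene sesn1 was at 33.4 FPKM in CON and 3.96 in H9, and rrm2b, rbl2 and ccng2 were also among the lower ones.

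Clock genes were lower in H9 as a list. Of 38 features of the circadian clock 23 were lower and 2 higher (median -1.27). The most abundant member, the repressor bhlhe40, was at 32.1 FPKM in CON and 10.5 in H9. The repressor per1a was at 2.84 FPKM in CON and 0.148 FPKM in H9, per3 at 9.99 FPKM in CON and 0.962 in H9 and per1b at 6.66 FPKM in CON and 0.907 in H9. The nuclear receptors nr1d2b and rorca, which regulate Bmal genes, were at 9.38 FPKM in CON and 1.22 in H9 and at 23.8 FPKM in CON and 3.68 in H9. The 2 higher were arntl2, a paralogue of the activator Bmal, at 0.586 FPKM in CON and 3.54 in H9 and bhlhe41, a repressor, at 3.12 FPKM in CON and 13.3 in H9, while arntl1a was at 3.18 FPKM in CON and 2.80 in H9. The hour of day at which each group was collected is not given in the sources used here, and its part in these levels was not tested. Cholesterol synthesis had 3 of 19 features higher and 5 lower, or 15.8% and 26.3% beside 23.3% and 24.8% of all features. Its lower share was thus near that of all features. The higher ones were idi1, hmgcrb and srebf2, and the lower ones fdft1, msmo1, ldlra, dhcr7 and sc5d. The rate-limiting reductase hmgcrb was at 3.38 FPKM in CON and 8.75 in H9, the regulator srebf2 at 1.35 FPKM in CON and 4.13 in H9 and sc5d, a late enzyme, at 2.21 FPKM in CON and 0.250 in H9.

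The largest single changes were those of features listed at 0 in 1 group, for which no fold can be given. Among features with a symbol and a mean of at least 10 FPKM, the 10 largest rises were all listed at 0 in CON and 9 of the 10 largest falls at 0 in H9. Of these 19, 13 were microRNA genes. The muscle microRNA genes mir133b and mir133c were at 370.1 and 26.0 FPKM in CON and listed at 0 in H9, and mir143-2, mir128-2, mir193a-2 and mir222b showed the same pattern. Listed at 0 in CON were mir730, at 96.1 FPKM in H9, mir29b-2 at 82.9, mir7b at 62.0, mir27d at 56.6, mir24-5 at 53.2, mir21-1 at 45.3 and mir451a at 40.4. RefSeq typed 57 features at or above 1 FPKM as microRNA, without mir143-2 and mir24-5, and 38 of the 57 were listed at 0 in either group. Of the other muscle microRNA genes, mir1-2 was at 106 FPKM in CON and 50.8 in H9 and mir1-1 at 6.74 FPKM in CON and 4.51 in H9. The gene mir206-1 was at 5.46 FPKM in CON and 10.3 in H9, and mir499a at 7.96 FPKM in CON and listed at 0 in H9. Total RNA libraries measure the precursor or host transcript of such short features rather than the mature microRNA. In the 18 hpi group mir133b and mir133c were again listed at 0 and mir21-1 was at 32.9 FPKM, but mir730, mir29b-2 and mir1-2 were listed at 0. There mir1-1 was at 66.0 FPKM, and mir738, at 28.9 FPKM in H9, was at 3476. A value of 0 in 1 group is therefore not read here as a gene switched on or off. The others of the 19 features were LOC101884506 and LOC101884975, at 134 and 122 FPKM in H9, scpp8, a secreted calcium-binding phosphoprotein gene, at 53.9, and, listed at 0 in H9, LOC103911643, LOC101885265 and LOC100535857, at 100.7, 25.6 and 23.4 FPKM in CON. The remaining large fall was that of fhl5, a LIM-domain gene on chromosome 17 from 15597669 to 15603742 of GRCz10, at 179 FPKM in CON and 0.864 FPKM in H9, 207-fold lower.

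Above 0 in both groups, and chosen after the values were seen, the largest rise was that of LOC100536946, a long non-coding RNA on chromosome 22 from 11067658 to 11068636, at 0.600 FPKM in CON and 279.5 FPKM in H9, 466-fold higher. The protein-coding si:dkey-102g19.3 was at 0.985 FPKM in CON and 141 in H9. Further large rises, besides those of crlf1a, adam8a and fosl1a given above, were those of tnfrsf11b, the decoy receptor osteoprotegerin, at 0.696 FPKM in CON and 30.4 in H9, and the matrix protein tinagl1, at 4.26 FPKM in CON and 168 in H9. The amino acid transporters slc43a2b and slc7a7 were at 0.558 FPKM in CON and 28.6 in H9 and at 0.499 FPKM in CON and 23.3 in H9. Among falls came pdp1, the phosphatase that activates pyruvate dehydrogenase, at 19.4 FPKM in CON and 0.662 in H9, the leucine-rich repeat gene lrrc30a at 21.9 FPKM in CON and 0.728 in H9 and the Popeye gene bves at 25.1 FPKM in CON and 1.19 in H9. The pore of the ATP-sensitive potassium channel, kcnj11, was at 24.7 FPKM in CON and 1.15 in H9. The highest protein-coding level of CON, nme2b.2, a nucleoside diphosphate kinase, was at 5463 FPKM in CON and 839 FPKM in H9. Of the 100 most abundant protein-coding features of CON 48 were lower in H9 and 2 higher, and 62 of the 100 were also among the top 100 of H9.

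Non-coding and mitochondrial features dominated the FPKM scale. The highest was LOC101885394 on chromosome 4, at 1565690 FPKM in CON and 1417950 FPKM in H9, followed by the unplaced LOC101882117, at 431628 FPKM in CON and 435707 in H9, and the ribosomal RNA feature zgc:158463, at 310648 FPKM in CON and 320680 in H9. All 3 were within 2-fold, as was the 7SK RNA rn7sk, which regulates transcription elongation, at 28931 FPKM in CON and 23447 in H9. The 24 features of the mitochondrial genome carry no symbol and were not assigned to genes. They summed to 1001440 FPKM in CON and 586394 FPKM in H9, with 3 higher and 4 lower and a median log2 change of -0.14, and the feature at positions 7976 to 8046 alone gave 770451 and 398613 FPKM. Far longer were the features at positions 1020 to 1971 and 2043 to 3725. They were at 17611 FPKM in CON and 25039 in H9 and at 20124 FPKM in CON and 32985.5 in H9. Levels of the other, short features depend on the length correction, and none of the 24 was compared with mRNA.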

How the data were processed

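Total RNA of laser-dissected LR muscle was depleted of ribosomal RNA and sequenced with stranded Illumina TruSeq libraries, single-end. Per the labels and the study's methods, the authors checked reads with FastQC 0.11.3, aligned them to GRCz10 with TopHat2 2.0.13 and Bowtie2 2.2.1, and ran CuffDiff 2.2.1 with multi-read correction, compatible-hits and upper-quartile normalization. The deposited tables give 1 FPKM per feature and group (CON, 4 libraries; H9, 5), so spread between libraries is not seen. They also hold the authors' log2 fold changes, p- and q-values, calls and GO terms, which were not used. The library depth behind each FPKM is not known from these tables. A count table has 14 per-sample columns whose names match no label, so it was not used and the planned edgeR count test was not run.

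Changes were computed with Python 3.11.15 and pandas 2.3.3 as log2((H9 + 0.1)/(CON + 0.1)) over features with a mean of at least 1 FPKM. A change of at least 2-fold counts as higher or lower, a rule of size and not a test. How this rule behaves under spread between libraries was not tested. RefSeq names and gene types were matched by gene ID (12476 of 13590 features); that table is of another assembly (GRCz12tu), so coordinates are those of the files. The members and gene lists were chosen with earlier results of these data known. Named genes are the highest level, largest rise and largest fall of each list, the 10 largest rises and falls among features averaging 10 FPKM or more, the 10 highest features, the genes the study knocked down and the highest marker of each cell type. All other genes named, and the isoform pairs, were chosen after their values were seen. Promoter motifs were not searched. Some genes that the rule names are not reported here.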

Additional observations from a re-analysis of the deposited data

How the results depend on the processing

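No result has a replicate check, and small groups of reads decide the FPKM of short or low features. With 3164 features higher and 3371 lower in the values reported, the alternatives gave 2302 to 4598 higher and 2580 to 4486 lower over pseudocounts of 0.01 and 1, a threshold of 1.5-fold, centring on the median, rescaling without the 3 most abundant features and leaving out features listed at 0. Without the filter on low levels 6435 were higher and 5581 lower, and with a mean of at least 5 FPKM 1188 and 1284. Scaling both groups to equal protein-coding sums, chosen after seeing the data, gave 5326 and 2403. The number of lists with a median change of at least 1 (log2) in either direction was 29, from 20 to 30 over the alternatives. Of 444 list medians recomputed under these settings, 425 moved by less than 1.5-fold, 19 by more, and 0 with a change of at least 2-fold reversed. Centring and both rescalings shift list medians nearly as a block and by less than 1.5-fold. Under them 0, 0 and 4 of 56 medians moved by more, which says little on how stable the medians are. Of 2938 values of named genes 2781 moved by less than 1.5-fold and 157 by more, and 0 reversed. All 157 came from another pseudocount, 34 of 380 values at 0.01 and 123 of 380 at 1. The filters leave the value of a single gene unchanged, and centring and rescaling shift it by less than 1.5-fold. Under those settings the outcome was fixed in advance, so it says nothing on how stable these values are. Rescaling shifts all log2 changes by 0.19 without the 3 most abundant features and by 0.51 for coding sums, and at least 1 of these shifts turns the sign of list medians below 0 (antioxidant, adhesion and matrix, collagen, cholesterol, Fgf, Wnt and Notch, membrane repair, mitochondrial ribosome and import, neuron markers), while centring on the median turns that of cytosolic ribosomal proteins. Settings that need counts (DESeq2, no count filter, CON and H9 alone, leaving out libraries) were not run. No paired analysis was possible because the group values carry no replicate numbers.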

Other observations

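The same table set holds group values for a later time, 18 hpi (H18), and the levels of the members at that time are set beside those above. H9 and H18 were each compared with the same CON libraries, so that agreement between both comparisons carries no independent weight, and no test can be made. The contractile and Z-disc lists summed to 17337, 3346 and 2079 FPKM in CON, H9 and H18, and the respiratory chain lists to 18629, 4603 and 4856. Nucleolar genes summed to 244, 1115 and 795, with their highest sum at 9 hpi. Cytokine and JAK-STAT genes had the same order, 393, 1085 and 594. Lysosomal genes summed to 491, 1934 and 4608, and the phagocyte markers beside them to 491, 875 and 953. Replication genes summed to 98.8, 91.8 and 299.7 and mitotic genes to 41.2, 23.4 and 88.5. Early signals such as fosl1a, at 1.06, 46.6 and 8.82 FPKM, and crlf1a, at 0.468, 63.4 and 24.5, were highest in H9. The replication clamp pcna stood at 23.4, 8.64 and 42.0 FPKM and fibronectin fn1a at 10.7, 14.8 and 57.1, both highest in H18. The methyltransferase ezh2 was at 1.12, 2.96 and 2.32 FPKM and suz12a at 1.77, 3.23 and 2.13.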
